A study of Mus musculus with 16 samples.

Results

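Chemokines are small secreted or membrane-bound proteins that direct leukocyte movement, and chemokine receptors are the G protein-coupled receptors that read them. The genes described here are the 50 with a symbol of the CXC, CC, CX3C or XC families, a letter L for a ligand or R for a receptor, and a number, out of 22180 genes with a probe set of their own on the array. They comprise 33 ligands and 17 receptors, all that match this symbol rule. Each was read by 1 probe set, and all 50 were matched by gene identifier to the RefSeq gene table of GRCm38.p6. Ccl19 was read by probe sets shared between near-identical copies alone and is not among them.

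The samples were whole kidneys of male mice in 4 groups of 4 arrays. HFD NiPKO and HFD control mice received a diet with 60% of energy from fat for 20 weeks, and chow NiPKO and chow control mice received a diet with 10% for the same time. NiPKO mice carry floxed alleles of PGC-1α (Ppargc1a), a coactivator of mitochondrial gene transcription, together with Pax8-rtTA and (tetO-cre)LC1. Doxycycline, at 0.2 mg/ml in sweetened drinking water for 2 weeks from 12 weeks of age, switches on the recombinase along the tubule. The glomerulus is spared, and recombination also occurs in liver. Littermates of the same mixed background served as controls. Which transgenes the controls carried, and whether the control mice on the array drank doxycycline, is not stated in the sources used here. Kidney markers were at high log2 signal, with Slc34a1 of the proximal tubule at a mean of 13.06 and Umod of the thick ascending limb at 12.77 over the 16 arrays. The probe set for Ppargc1a itself was higher in NiPKO kidneys, by 0.52 ± 0.066 (log2 difference ± SE) on HFD and 0.45 ± 0.066 on chow, with adjusted p of 0.00132 and 0.00258 (limma). Which exons its probes cover was not analysed here, so this value checks nothing about the labels. By PCR, the paper reports recombination of the gene and strongly diminished PGC-1α mRNA in NiPKO kidney. The paper's array list of genes higher in chow NiPKO than in chow control kidneys holds Ppargc1a.

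Chemokines fall into a few groups by function. The CXC ligands Cxcl1, Cxcl2, Cxcl3 and Cxcl5 attract neutrophils through Cxcr2, and Cxcl9, Cxcl10 and Cxcl11 are interferon-induced and attract activated T cells through Cxcr3. Monocytes leave the blood in response to Ccl2, Ccl7 and Ccl12 at Ccr2, whereas Cxcl12, Cxcl13, Cxcl14 and Cxcl16 are made constitutively in many tissues. In injured kidney, tubule cells are known to be a source of several of them, Cxcl1 and Ccl2 among them.

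All values are log2 signal, so a difference of 1 is a doubling, and differences are those of 1 limma fit over all 22180 genes and all 16 arrays. A gene is said to have changed where it passed the thresholds the study's methods state for the array, a fold change over 1.2 together with an unadjusted p under 0.05. Adjusted p-values are Benjamini-Hochberg values over all genes. Replicates are labelled biological, but no label says that each is a different mouse, so a p-value covers only the spread among the samples at hand. In whole kidney, fewer cells of a type and less RNA per cell cannot be told apart.

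On chow, 4 of the 50 genes changed between NiPKO and control kidneys, and all 4 were higher in NiPKO kidneys. They were the ligands Cxcl1, Cxcl13, Cxcl16 and Ccl26. Among all genes 4.42% changed in this comparison, 2.33% upwards and 2.09% downwards. Only Cxcl1 had an adjusted p under 0.05, which 1.28% of all genes reached. Over the alternatives other than leaving out arrays, the adjusted p ran from 0.0186 to 0.193 for Cxcl16 and from 0.0413 to 0.349 for Cxcl13. The highest for Cxcl1 was 0.205, with the per-gene test of the methods. The groups did not overlap for 4 of the 50 genes, or 8%, near the 7.44% of all genes. The median log2 difference was 0.04 over the 50 genes and 0.01 over all genes.

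On HFD, 2 of the 50 genes changed between NiPKO and control kidneys, the ligands Ccl9 and Cxcl3, both higher in NiPKO kidneys. This share of 4% is near the 3.72% of all genes, of which 1.93% were higher and 1.79% lower. No member had an adjusted p under 0.05 with limma, a level that 0.825% of all genes reached, and 6 members (12%) had an unadjusted p under 0.05, against 10.8% of all genes. None reached the adjusted level with the per-gene test named in the methods, and 1 did where only the brighter genes were tested. For 2 of the 50 genes, against 6.88% of all genes, the groups did not overlap. A difference above 0 was seen for 33 of the 50 genes (median 0.05), 24 of the ligands (median 0.08) and 9 of the receptors (median 0.0020), against 50.6% of all genes (median 0.0016).

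In control mice the diet changed 5 of the 50 genes. Ccl20, Cxcl1 and Cxcl10 were higher in HFD than in chow kidneys, and Ccl28 and Cxcl14 were lower, where 4.64% of all genes changed, 2.3% upwards and 2.34% downwards. With each array centred on its median the split was 2 higher and 3 lower. Cxcl1 alone had an adjusted p under 0.05, as 0.564% of all genes did. Groups that did not overlap were seen for 4 of the 50 genes, or 8%, and for 7.12% of all genes.

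In NiPKO mice the diet changed 7 of the 50 genes, or 14%. Ccl2, Ccl3, Ccl9 and Cxcl10 were higher in HFD than in chow kidneys, and Ccl26, Ccl28 and Cxcl13 were lower. Among all genes 4.47% changed, 2.26% upwards and 2.21% downwards. No member had an adjusted p under 0.05 with limma, against 0.261% of all genes, and 8 (16%) had an unadjusted p under 0.05, as did 13.4% of all genes. The per-gene test of the methods gave none as well, the fit with array weights gave 1, and testing only the brighter genes gave 2. The groups did not overlap for 6 of the 50 genes, or 12%, against 8.24% of all genes.

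The interaction asks whether the NiPKO-minus-control difference on HFD departs from that on chow. It passed the thresholds for 6 of the 50 genes, or 12%, against 5.74% of all genes. It was positive for Ccl9 and Ccl12, a direction that 2.04% of all genes took, and negative for Cxcl1, Ccl4, Ccl20 and Ccl26, as for 3.71% of all genes. No gene of the whole array had an adjusted p under 0.05 for the interaction (0% of all genes), and 7 members (14%) had an unadjusted p under 0.05, against 8.24% of all genes. The 5 comparisons share arrays and their counts are not independent. In all, 14 of the 33 ligands (42.4%) and 0 of the 17 receptors changed in at least 1 comparison by limma, as did 14.7% of all genes, while 2 of the receptor tests, both on Ccr6, had an unadjusted p under 0.05.

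**Figure D1:**
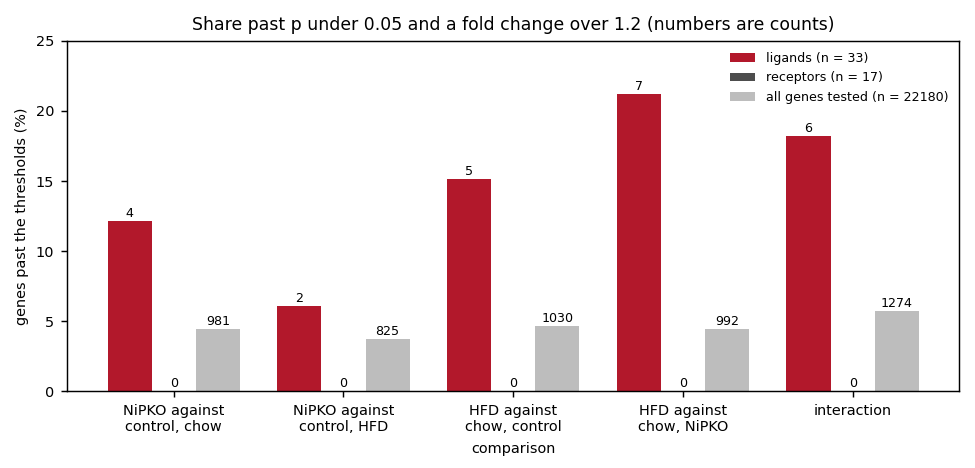
Percent of the 33 ligands, the 17 receptors and all 22180 genes that passed both thresholds, a fold change over 1.2 and an unadjusted p under 0.05, in each comparison (vertical axis, %), with the number of genes over each bar. Ligands passed in every comparison, between 2 and 7 of them, and no receptor did.

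**Figure D2:**
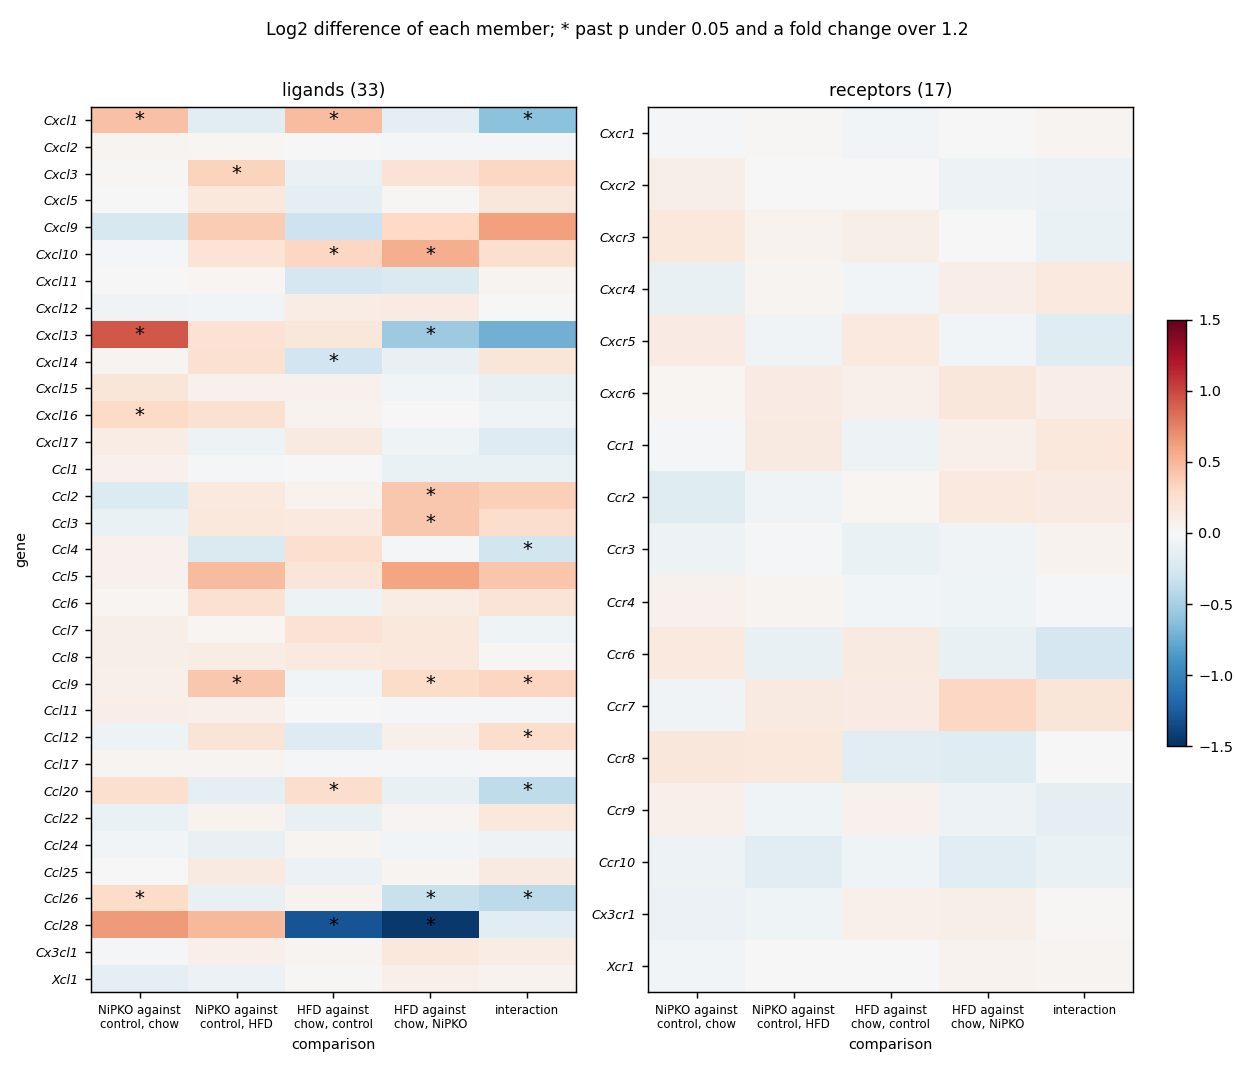
Log2 difference of each ligand (left) and receptor (right) in the 5 comparisons, red for higher in the first-named group and blue for lower, with a star where the thresholds were passed. The stars fall on 14 ligands and on none of the receptors, and the darkest cells are those of Ccl28 for diet, -1.29 in control and -1.45 in NiPKO kidneys.

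Cxcl1, also called KC, is a main neutrophil attractant of the mouse and gave the smallest p of the set. Its log2 signal was 4.86, 5.03, 4.85 and 5.22 in chow NiPKO kidneys, against 4.44, 4.59, 4.50 and 4.67 in chow control kidneys. Every chow NiPKO value lay above every chow control value, with a log2 difference of 0.44 ± 0.082 (SE) and an adjusted p of 0.0114 (limma). On HFD the values were 4.79, 4.88, 4.76 and 4.93 in NiPKO kidneys and 5.10, 5.03, 5.03 and 4.89 in control kidneys. Here the groups overlapped and the difference, -0.17, did not pass the thresholds. HFD control kidneys thus lay above chow control kidneys without overlap, by 0.46 ± 0.082 (adjusted p = 0.0181, limma). The chow control group was the low one of the 4, and the other 3 had means of 4.84 ± 0.080 (SD, n = 4) in HFD NiPKO, 5.01 ± 0.090 in HFD control and 4.99 ± 0.17 in chow NiPKO kidneys, against 4.55 ± 0.10 in chow control kidneys. The interaction was -0.61 ± 0.12 with an unadjusted p of 7.37e-05 and an adjusted p of 0.234. No single array decided these calls. Without HFD control replicate 1, 2 or 3 or chow control replicate 3, the adjusted p of the diet difference in control mice lay between 0.0524 and 0.0762, and it was 0.0635 from the arrays of the 2 groups alone. The adjusted p of the genotype difference on chow was 0.0890 from the arrays of the 2 groups alone. With the per-gene test of the methods it was 0.205 for genotype on chow and 0.203 for diet in control mice.

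Cxcl3, a ligand of the same receptor, was dim, with a mean of 3.06 over the 16 arrays. It read 3.29, 3.22, 2.90 and 3.59 in HFD NiPKO kidneys, against 3.02, 2.90, 2.95 and 2.82 in HFD control kidneys. The groups overlapped through HFD NiPKO replicate 3, and the difference was 0.33 ± 0.13 (adjusted p = 0.337, limma). On chow it read 2.84, 3.11, 3.24 and 2.96 in NiPKO kidneys, against 2.92, 2.95, 3.34 and 2.87 in control kidneys. The call on HFD ended without HFD NiPKO replicate 4 (0.22) and without HFD control replicate 4 (0.30), and with the per-gene test of the methods. Of the 5 neutrophil ligands measured, Cxcl2, Cxcl5 and Cxcl15 passed in no comparison.

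The starts of these genes are shown because they share a binding element. The 250 bases before the start of Cxcl1, on the plus strand at chr5:90890995-90891244 of GRCm38.p6, and the 120 before those of Cxcl2 (chr5:90903779-90903898, plus strand), its neighbour, and Cxcl3 (chr5:90785981-90786100, plus strand), nearby, hold the NF-κB consensus, in capitals. In all 3 the match runs over 11 bases, since the 10-base consensus is matched on both strands with 1 base offset, and it begins 71 bases before the start in Cxcl1, 97 in Cxcl2 and 73 in Cxcl3. All sequences are RefSeq's and run 5′ to 3′.
Cxcl1: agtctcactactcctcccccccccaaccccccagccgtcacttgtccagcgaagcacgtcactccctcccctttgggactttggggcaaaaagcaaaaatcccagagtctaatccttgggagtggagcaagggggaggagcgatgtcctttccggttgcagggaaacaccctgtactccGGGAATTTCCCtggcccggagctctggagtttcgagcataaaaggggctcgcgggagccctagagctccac
Cxcl2: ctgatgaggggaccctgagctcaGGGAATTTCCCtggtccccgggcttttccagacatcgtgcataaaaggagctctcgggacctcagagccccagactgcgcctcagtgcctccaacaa
Cxcl3: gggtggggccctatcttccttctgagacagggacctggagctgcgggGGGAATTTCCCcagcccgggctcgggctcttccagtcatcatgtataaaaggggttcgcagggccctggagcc
The same consensus was searched on both strands in the 250 bases before the start of every gene in the promoter table. It was found in 10 of the 36 members with an entry, or 27.8%, and in 7.25% of all 32851 promoters. Members were counted by gene and the whole table by promoter, so these shares may not be counted alike. Among the 10 genes that changed and have an entry, 5 held it, and among the other 26 with an entry, 5 did. Cxcl1 and Cxcl2 carry the identical 11 bases. Their differences between chow NiPKO and chow control kidneys were 0.44 and 0.04, and Cxcl2 was dim, with a mean of 3.88 over the 16 arrays. The part of the element in these differences was not tested.

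Of the interferon-induced ligands, Cxcl10 changed with the diet in both genotypes. It read 7.40, 7.13, 6.67 and 6.84 in HFD NiPKO kidneys, against 6.63, 6.39, 6.33 and 6.50 in chow NiPKO kidneys. These groups did not overlap, and the difference was 0.55 ± 0.14 (adjusted p = 0.0964, limma). In control mice it read 7.07, 6.51, 6.73 and 6.92 on HFD, against 6.39, 6.45, 6.58 and 6.55 on chow. HFD control replicate 2 fell within the chow range, and the difference was 0.31 ± 0.14 (adjusted p = 0.348). This second call ended without HFD control replicate 1 or 4 or chow control replicate 1 or 2, with differences from 0.22 to 0.30, and with array weights (0.30) or the per-gene test of the methods. The genotype difference passed on neither diet, and the interaction did not pass. Cxcl9 and Cxcl11 passed in no comparison. Cxcl9 spread widely, with an interaction of 0.62 whose 95% interval ran from -0.21 to 1.45.

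The 250 bases before the start of Cxcl10, on the minus strand at chr5:92348890-92349139 of GRCm38.p6, hold the NF-κB consensus at 2 places, in capitals, 159 and 104 bases before the start. The second is 11 bases long and is matched on both strands.
Cxcl10: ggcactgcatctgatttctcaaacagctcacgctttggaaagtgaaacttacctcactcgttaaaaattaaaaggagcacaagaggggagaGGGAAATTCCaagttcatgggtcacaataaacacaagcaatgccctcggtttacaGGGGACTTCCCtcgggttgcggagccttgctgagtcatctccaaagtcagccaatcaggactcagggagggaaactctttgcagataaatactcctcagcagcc
Of 13 interferon-induced genes outside the chemokine families, none changed with the diet in NiPKO mice and 12 had a difference above 0, with a median of 0.10. In that comparison 4.47% of all genes changed and 51.0% had a difference above 0. Iigp1, an interferon-induced GTPase, was lower in HFD than in chow control kidneys, by -0.46 ± 0.18 (adjusted p = 0.282), opposite in sign to Cxcl10 in the same comparison. Its interaction of 0.66 passed (adjusted p = 0.542), with the sign of those of Cxcl9 and Cxcl10, which did not.

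Among the constitutive CXC ligands, Cxcl13 had the largest genotype difference of the set. Cxcl13 is the B cell attractant of lymphoid follicles and acts at Cxcr5. Its signal was 7.36, 6.73, 7.53 and 7.75 in chow NiPKO kidneys, against 6.48, 6.36, 5.89 and 6.89 in chow control kidneys. Chow NiPKO replicate 2 lay below chow control replicate 4, so the groups overlapped, and the difference was 0.94 ± 0.24 (adjusted p = 0.0737, limma). The call held without any 1 of the 8 arrays, with differences from 0.77 to 1.14. On HFD it read 7.10, 6.42, 6.85 and 6.81 in NiPKO kidneys, against 6.74, 6.49, 7.02 and 6.05 in control kidneys, a difference of 0.22 whose 95% interval ran from -0.29 to 0.73. Within NiPKO mice HFD kidneys were lower than chow kidneys, with overlap, by -0.55 ± 0.24 (adjusted p = 0.334). That call ended without any 1 of 6 arrays, HFD NiPKO replicates 2, 3 and 4 and chow NiPKO replicates 1, 3 and 4, with differences from -0.57 to -0.41, and under a trended prior or the per-gene test of the methods. The interaction of -0.72 had an unadjusted p of 0.051.

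Cxcl16, a membrane-anchored ligand of Cxcr6 that is also a scavenger receptor, had a narrow spread in chow NiPKO kidneys. It read 9.64, 9.60, 9.65 and 9.64 there, against 9.39, 9.37, 9.15 and 9.45 in chow control kidneys, with no overlap. The difference was 0.29 ± 0.072 (adjusted p = 0.0609, limma), and without chow control replicate 3 it was 0.23 and below the fold limit. On HFD the signal was 9.59, 9.77, 9.46 and 9.67 in NiPKO kidneys, against 9.49, 9.42, 9.35 and 9.33 in control kidneys, with HFD NiPKO replicate 3 inside the control range. The difference of 0.22 ± 0.072 on HFD had an unadjusted p of 0.0065 and a fold change of 1.17, under the limit. The interaction, -0.07, did not pass.

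Cxcl14, a ligand of epithelia, read 8.41, 7.96, 8.38 and 8.47 in HFD control kidneys, against 8.57, 8.40, 8.76 and 8.65 in chow control kidneys. The groups overlapped, with HFD control replicate 2 the lowest array of all, and the difference was -0.29 ± 0.098 (adjusted p = 0.205, limma). Without that array it was -0.18 and no longer passed, nor did it without chow control replicate 3 (-0.23), after quantile normalization (-0.26) or with the per-gene test of the methods. In NiPKO kidneys it read 8.61, 8.44, 8.53 and 8.53 on HFD, against 8.59, 8.70, 8.58 and 8.69 on chow. Cxcl12 and Cxcl17 passed in no comparison.

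**Figure D3:**
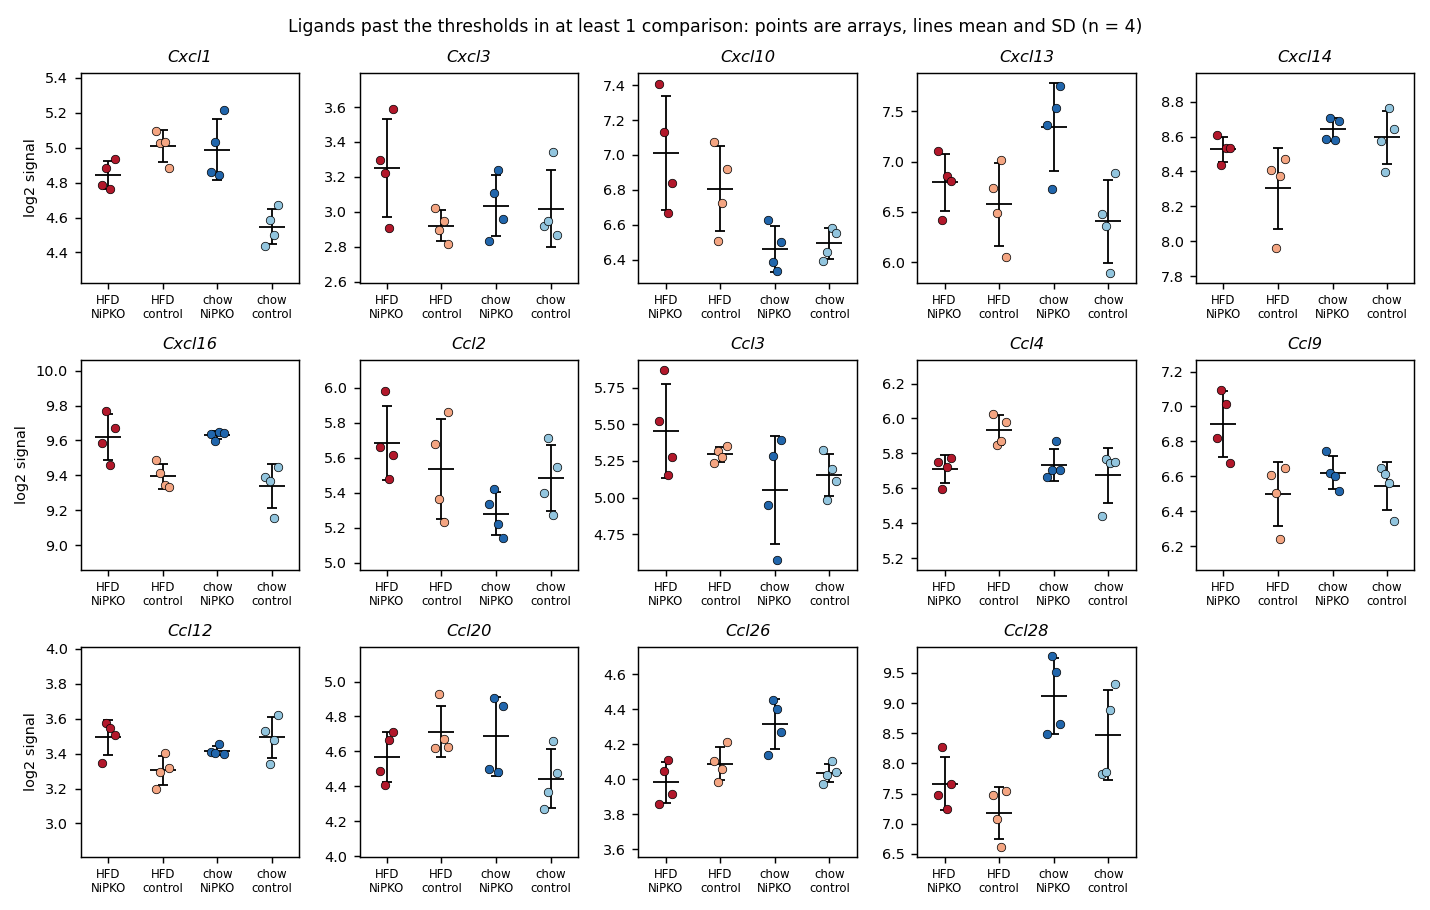
Log2 signal (vertical axes, scaled per gene and not starting at 0) of the 14 ligands that changed in at least 1 comparison, with 1 point per array and lines for the mean and SD of 4 arrays. Cxcl1 is low in the chow control group alone, with a mean of 4.55, and Ccl28 is higher on chow than on HFD in both genotypes.

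Of the 4 monocyte CC ligands, Ccl2 (MCP-1) changed with the diet in NiPKO mice. It read 5.66, 5.98, 5.48 and 5.62 in HFD NiPKO kidneys, against 5.34, 5.42, 5.22 and 5.14 in chow NiPKO kidneys. The groups did not overlap, and the difference was 0.41 ± 0.13 (adjusted p = 0.194, limma). The call held without any 1 of the 8 arrays, with differences from 0.31 to 0.47. In control mice it read 5.68, 5.36, 5.23 and 5.86 on HFD, against 5.40, 5.71, 5.27 and 5.55 on chow, and these groups overlapped throughout. The interaction for Ccl2 did not pass, so the diet difference is not shown to differ between the genotypes.

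Ccl12, a mouse ligand of Ccr2 in the same cluster on chromosome 11 as Ccl2, was dim and passed for the interaction only. It read 3.35, 3.57, 3.54 and 3.50 in HFD NiPKO kidneys, against 3.20, 3.30, 3.40 and 3.32 in HFD control kidneys. On chow it read 3.41, 3.40, 3.46 and 3.40 in NiPKO kidneys, against 3.53, 3.34, 3.48 and 3.62 in control kidneys. The genotype difference was 0.19 on HFD and -0.08 on chow, under the fold limit on both diets. The interaction of 0.26 ± 0.095 (adjusted p = 0.519, limma) stood at the limit with a fold of 1.2. It fell below it without any 1 of 10 arrays, HFD NiPKO replicates 2, 3 and 4, HFD control replicates 1 and 2, chow NiPKO replicates 1, 2 and 4, and chow control replicates 1 and 4, with values from 0.22 to 0.26, and with array weights (0.25). Ccl7 and Ccl8 passed in no comparison, with differences above 0 in all 4 comparisons of 2 groups.

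A further group of inflammatory CC ligands holds Ccl3 (MIP-1α), Ccl4 (MIP-1β), Ccl5 (RANTES), Ccl6 and Ccl9 (MIP-1γ). Ccl9, a mouse ligand of Ccr1 made by myeloid cells, was the one that passed in 3 comparisons. It read 6.82, 7.09, 7.01 and 6.67 in HFD NiPKO kidneys, against 6.61, 6.51, 6.24 and 6.65 in HFD control kidneys. The groups were separated by a narrow gap, between HFD NiPKO replicate 4 and HFD control replicate 4, and the difference was 0.40 ± 0.10 (adjusted p = 0.0983, limma). It passed without any 1 of the 8 arrays, with differences from 0.31 to 0.47. On chow Ccl9 read 6.75, 6.62, 6.60 and 6.52 in NiPKO kidneys, against 6.65, 6.62, 6.56 and 6.34 in control kidneys. This difference of 0.08 did not pass. Within NiPKO mice HFD kidneys were higher than chow kidneys by 0.28 ± 0.10 (adjusted p = 0.244), a call that ended without HFD NiPKO replicate 2 or 3 or chow NiPKO replicate 4, with differences from 0.21 to 0.24, or after quantile normalization (0.23). The interaction was 0.32 ± 0.15 (adjusted p = 0.591). It lost its call without any 1 of 10 arrays, HFD NiPKO replicates 2 and 3, HFD control replicates 2 and 3, chow NiPKO replicates 2, 3 and 4, and chow control replicates 1, 2 and 3, with values from 0.23 to 0.32.

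The 120 bases before the start of Ccl9, on the minus strand at chr11:83578637-83578756 of GRCm38.p6, are shown as those of the member with the clearest genotype difference on HFD. The NF-κB consensus, in capitals, is matched on 1 strand and begins 35 bases before the start.
Ccl9: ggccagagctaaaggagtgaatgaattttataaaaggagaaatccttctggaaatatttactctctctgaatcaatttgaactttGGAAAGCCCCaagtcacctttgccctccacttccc

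Ccl3 passed for the diet in NiPKO mice. It read 5.52, 5.87, 5.15 and 5.27 in HFD NiPKO kidneys, against 4.95, 5.29, 4.57 and 5.39 in chow NiPKO kidneys, and the groups overlapped. The difference was 0.40 ± 0.16 (adjusted p = 0.280, limma) and no longer passed without HFD NiPKO replicate 2 (0.26), chow NiPKO replicate 3 (0.24) or chow NiPKO replicate 1 (0.37), nor from the arrays of the 2 groups alone. In control kidneys Ccl3 read 5.23, 5.32, 5.28 and 5.35 on HFD, against 5.32, 4.98, 5.20 and 5.11 on chow.

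Ccl4 overlaps the span of Ccl3 in GRCm38.p6. Ccl4 read 5.75, 5.60, 5.72 and 5.77 in HFD NiPKO kidneys, against 6.03, 5.85, 5.87 and 5.98 in HFD control kidneys. These groups did not overlap, and the difference of -0.22 had an unadjusted p of 0.0109 but a fold change of 1.17, under the limit. On chow it read 5.67, 5.70, 5.87 and 5.70 in NiPKO kidneys, against 5.44, 5.77, 5.75 and 5.75 in control kidneys, a difference of 0.06. The interaction was -0.28 ± 0.11 (adjusted p = 0.544, limma). It fell below the fold limit without HFD NiPKO replicate 2, HFD control replicate 1, chow NiPKO replicate 3 or chow control replicate 1, with values from -0.25 to -0.20, and after quantile normalization (-0.24). Ccl5, made by T cells and NK cells, passed in no comparison. Its diet difference in NiPKO mice, 0.59, was larger than those of Ccl2 and Ccl3 and had a 95% interval from -0.05 to 1.24.

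Ccl28, a ligand of mucosal epithelia that acts at Ccr10, had the largest difference of all 50 genes, for diet. It read 7.48, 8.27, 7.24 and 7.65 in HFD NiPKO kidneys, against 8.49, 9.77, 9.52 and 8.65 in chow NiPKO kidneys. The groups did not overlap, and the difference was -1.45 ± 0.35, a 2.73-fold lower signal on HFD (adjusted p = 0.0857, limma). In control mice it read 7.47, 7.08, 6.61 and 7.54 on HFD, against 7.83, 7.86, 8.88 and 9.32 on chow, again without overlap. That difference was -1.29 ± 0.35, a 2.45-fold lower signal (adjusted p = 0.117). Both calls held without any 1 of their 8 arrays, with differences from -1.65 to -1.23 in NiPKO and from -1.51 to -1.01 in control kidneys. They were also the only calls of the 24 to pass at a fold change over 1.5 beside those of Cxcl13 for genotype on chow and Cxcl1 for the interaction. The interaction for Ccl28 was -0.16, with a 95% interval from -1.22 to 0.91. Its genotype difference was 0.48 on HFD and 0.64 on chow, and neither passed.

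Ccl20, the ligand of Ccr6 that draws dendritic cells and T cells to mucosa, read 4.62, 4.93, 4.67 and 4.63 in HFD control kidneys, against 4.27, 4.37, 4.66 and 4.48 in chow control kidneys. The groups overlapped, and the difference of 0.27 ± 0.11 (adjusted p = 0.322, limma) ended without HFD control replicate 2 or chow control replicate 1 or 2, with values from 0.20 to 0.24. In NiPKO mice it read 4.49, 4.41, 4.67 and 4.71 on HFD, against 4.50, 4.91, 4.48 and 4.86 on chow. Ccl20 was dim, with a mean of 4.60 over the 16 arrays. The genotype difference was -0.14 on HFD and 0.24 on chow, and the interaction was -0.39 ± 0.16 (adjusted p = 0.565). Quantile normalization also ended both calls, with a diet difference of 0.22 and an interaction of -0.31, and median centring ended the first (0.24). The interaction no longer passed without any 1 of 7 arrays, HFD NiPKO replicates 1 and 2, HFD control replicate 2, chow NiPKO replicates 2 and 4, and chow control replicates 1 and 2, with values from -0.36 to -0.31.

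The 120 bases before the start of Ccl20, on the plus strand at chr1:83116646-83116765 of GRCm38.p6, are shown because this was the one member whose 250 upstream bases held both the NF-κB consensus, in capitals here and 80 bases before the start, and TNAAGGTCA.
Ccl20: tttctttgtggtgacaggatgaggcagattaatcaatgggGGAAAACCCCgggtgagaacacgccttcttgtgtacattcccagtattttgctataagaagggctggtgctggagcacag
TNAAGGTCA is the element of the estrogen-related receptors, nuclear receptors that PGC-1α is known to coactivate. It stood in 1 of the 36 members with an entry and in 1.14% of all promoters, searched on both strands and counted in the same way.

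Ccl26 is named after human eotaxin-3, an eosinophil attractant in humans. It was dim, with a mean of 4.11 over the 16 arrays. It read 4.14, 4.45, 4.40 and 4.27 in chow NiPKO kidneys, against 3.97, 4.02, 4.10 and 4.04 in chow control kidneys. The groups did not overlap, and the difference was 0.28 ± 0.076 (adjusted p = 0.0922, limma). On HFD it read 3.86, 4.05, 4.11 and 3.91 in NiPKO kidneys, against 4.10, 3.98, 4.06 and 4.21 in control kidneys. The chow NiPKO group was the high one of the 4. HFD NiPKO kidneys were lower than chow NiPKO kidneys without overlap, by -0.33 ± 0.076 (adjusted p = 0.0736), and the interaction was -0.39 ± 0.11 (adjusted p = 0.464). These last calls held without any 1 array. The genotype call on chow fell below the fold limit without chow NiPKO replicate 2 or 3 or chow control replicate 1, with values from 0.23 to 0.26, and after quantile normalization (0.24) or median centring (0.26). The other eosinophil ligands, Ccl11 and Ccl24, passed in no comparison.

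**Figure D4:**
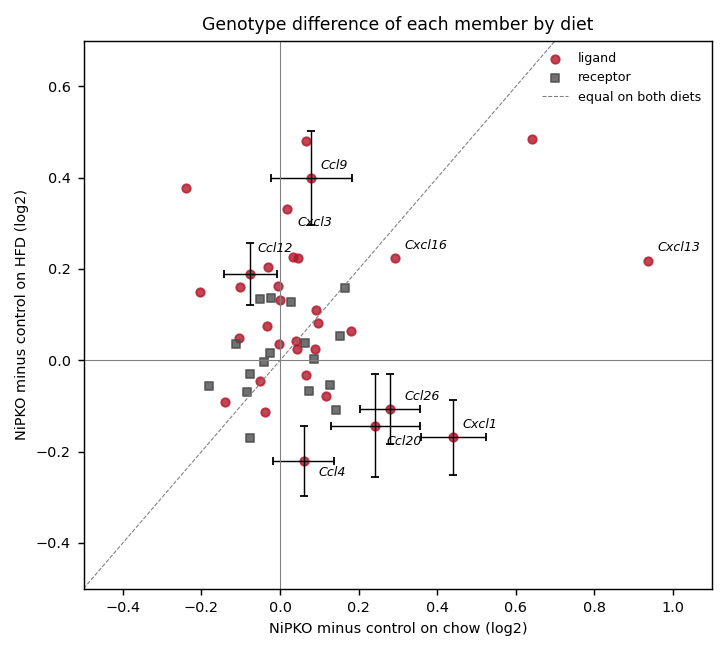
NiPKO-minus-control log2 difference of each of the 50 genes on HFD (vertical) against that on chow (horizontal), with SE bars for the 6 genes that passed for the interaction and a dashed line of equal differences. Cxcl1 lies at -0.17 on HFD and 0.44 on chow, below the line, and Ccl9 at 0.40 on HFD and 0.08 on chow, above it.

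None of the 17 receptors passed in any comparison by limma, where 3.72% to 5.74% of all genes passed, a share that comes to under 1 gene in 17 for each comparison. Over the 4 comparisons of 2 groups their 68 differences ran from -0.18 to 0.31, and the widest 95% interval bounds were -0.38 and 0.64. These receptors are known mainly from leukocytes. The highest was that of Ccr7, which guides cells to lymph nodes, for diet in NiPKO mice, with a 95% interval from -0.02 to 0.64. Receptors of ligands that changed were examined singly.

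Cxcr2, the receptor of Cxcl1 and Cxcl3, read 5.40, 5.62, 5.54 and 5.26 in chow NiPKO kidneys, against 5.27, 5.49, 5.34 and 5.36 in chow control kidneys. The groups overlapped, with a difference of 0.09 and a 95% interval from -0.09 to 0.27. Cxcr5, the receptor of Cxcl13, read 5.43, 5.46, 5.66 and 5.67 in chow NiPKO kidneys, against 5.27, 5.39, 5.72 and 5.32 in chow control kidneys. Its difference was 0.13, with a 95% interval from -0.13 to 0.38. Cxcr6, the receptor of Cxcl16, read 4.41, 4.36, 4.48 and 4.32 in chow NiPKO kidneys, against 4.66, 4.41, 4.37 and 4.03 in chow control kidneys, an interval from -0.24 to 0.29. For each of these 3 receptors the groups overlapped.

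Cxcr3, at which Cxcl10 acts, read 5.35, 5.34, 5.23 and 5.40 in HFD NiPKO kidneys, against 5.29, 5.43, 5.23 and 5.39 in chow NiPKO kidneys, with a 95% interval of the difference from -0.18 to 0.17. Ccr2, which binds Ccl2 and Ccl12, read 5.41, 5.46, 5.40 and 5.41 in HFD NiPKO kidneys, against 5.40, 5.32, 5.01 and 5.34 in chow NiPKO kidneys. The groups overlapped by a small amount, and the difference was 0.15 with a 95% interval from -0.05 to 0.35. Ccr1, which binds Ccl3 and Ccl9, read 4.35, 4.33, 3.85 and 4.17 in HFD NiPKO kidneys, against 3.96, 4.10, 4.09 and 4.00 in HFD control kidneys, an interval from -0.09 to 0.37. Ccr10, the receptor of Ccl28, read 4.66, 4.65, 4.82 and 4.52 in HFD NiPKO kidneys, against 4.72, 4.82, 4.62 and 5.11 in chow NiPKO kidneys, an interval from -0.34 to 0.03.

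Ccr6, the receptor of Ccl20, came nearest to the thresholds. It read 4.06, 4.11, 4.07 and 4.07 in chow NiPKO kidneys, against 3.97, 4.04, 3.97 and 3.75 in chow control kidneys, without overlap. On HFD it read 3.97, 4.03, 3.85 and 4.01 in NiPKO kidneys, against 4.09, 4.11, 4.16 and 3.93 in control kidneys. The genotype difference was -0.11 on HFD and 0.14 on chow, and the interaction of -0.25 ± 0.095 had an unadjusted p of 0.0178, an adjusted p of 0.542 (limma) and a fold change of 1.19. The interaction had the same sign for Ccr6 as for Ccl20, without passing the fold limit. Ccr3, at which human eotaxin-3 acts, was dim, with group means from 3.09 to 3.22 and differences from -0.10 to -0.03 in the comparisons of 2 groups.

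**Figure D5:**
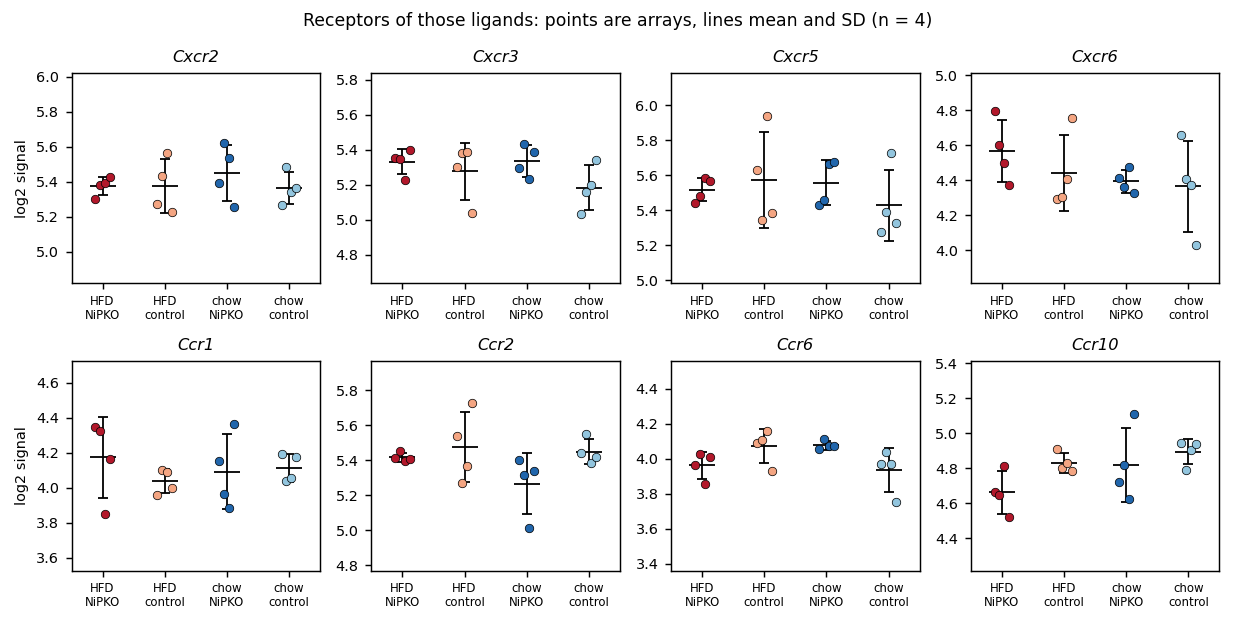
Log2 signal (vertical axes, scaled per gene and not starting at 0) of 8 receptors of ligands that changed, with 1 point per array and lines for the mean and SD of 4 arrays. The groups lie close together, and Ccr6 shows its lowest mean, 3.94, in chow control kidneys.

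The 36 members that passed in no comparison were these 17 receptors and 19 ligands. Their differences ran from -0.24 (Cxcl9) to 0.18 (Cxcl15) for genotype on chow and from -0.17 (Ccr10) to 0.48 (Ccl5) for genotype on HFD. For diet they ran from -0.22 (Cxcl11) to 0.59 (Ccl5) in NiPKO mice and from -0.32 (Cxcl9) to 0.22 (Ccl7) in control mice. Cx3cl1, the membrane-bound ligand of Cx3cr1, was separated by diet in NiPKO mice without overlap, yet its difference of 0.15 (unadjusted p = 0.0186, limma) was under the fold limit.

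By position, 11 of the ligands lie on chromosome 5 and 12 on chromosome 11, each including a run of neighbouring genes, and 10 of the receptors lie on chromosome 9. Of the 14 ligands that changed, 5 lie on chromosome 5 and 6 on chromosome 11. Cxcl1 and Cxcl2 lie next to each other with Cxcl3 nearby, and each passed in a different set of comparisons, Cxcl2 in none. On chromosome 11, Ccl5, Ccl9, Ccl6 and Ccl3 follow each other among the members, and their differences were all above 0 for genotype on HFD and for diet in NiPKO mice, where Ccl9 and Ccl3 passed.

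Of 11 other chemokine genes that the symbol rule leaves out, none changed with genotype on either diet by limma. Among all genes 4.42% changed with genotype on chow and 3.72% on HFD. For diet, 4.47% changed in NiPKO mice and 4.64% in control mice. Cklf, a chemokine-like factor, was higher on HFD than on chow in NiPKO mice by 0.31 ± 0.10 (adjusted p = 0.190) and in control mice by 0.27 ± 0.10 (adjusted p = 0.263). Ccrl2, an atypical receptor, was higher on HFD in NiPKO mice by 0.32 ± 0.11 (adjusted p = 0.229). The platelet chemokine Ppbp was lower on HFD in control mice by -0.48 ± 0.21 (adjusted p = 0.337), and Pf4, another one, had an interaction of 0.54 ± 0.23 (adjusted p = 0.573).

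Of 25 genes of receptor signalling, 1 changed, where 14.7% of all genes changed in at least 1 comparison. Rgs2, an inhibitor of G protein signalling, was higher in HFD NiPKO than in HFD control kidneys by 0.41 ± 0.11 (adjusted p = 0.137, limma). Of 23 inducers of chemokine genes, Jun, Rel and Nfkb2 changed with the diet in NiPKO mice, as did 4.47% of all genes. Jun, a subunit of AP-1, read 7.97, 8.32, 7.89 and 8.47 in HFD NiPKO kidneys, against 7.36, 7.60, 7.69 and 7.80 in chow NiPKO kidneys, a difference of 0.55 ± 0.14 (adjusted p = 0.0887). Rel and Nfkb2, subunits of NF-κB, were higher by 0.35 ± 0.095 and 0.27 ± 0.091. For each of these 3 genes the groups did not overlap. On chow, NiPKO kidneys were lower than control kidneys in Jun, by -0.43 ± 0.14 (adjusted p = 0.167, limma). Ticam1, an adaptor of Toll-like receptors, was lower in the same comparison by -0.42 ± 0.10 (adjusted p = 0.0543). Of the 23 inducers, 2 passed there, against 4.42% of all genes, and 14 had a difference above 0, with a median of 0.02. The part of the inducers in the chemokine differences was not tested. The interaction passed for Jun (0.48), Rel (0.37) and the cytokine Il1a (-0.29), and for 5.74% of all genes.

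Some markers of leukocytes passed the same thresholds. Among all genes 4.42% passed for genotype on chow and 3.72% for genotype on HFD. For diet 4.64% passed in control mice and 4.47% in NiPKO mice. Of 32 leukocyte markers, 4 were higher on HFD in NiPKO mice, namely Itgax, Cd79a, Mzb1 and Cd68, by 0.46, 0.48, 0.32 and 0.29, and none was lower. In that comparison the linear signal summed over the 32 markers ran from 2428 to 2859 in HFD NiPKO kidneys and from 2475 to 2863 in chow NiPKO kidneys. On chow, Itgam and C1qb were higher in NiPKO kidneys by 0.29 and 0.30, with sums from 2475 to 2863 in NiPKO and from 2395 to 2467 in control kidneys. These sums were separated by a narrow gap, but the sums of each leukocyte type taken singly overlapped. For macrophage markers they ran from 953 to 1162 in chow NiPKO and from 893 to 1024 in chow control kidneys. Monocyte markers ran from 341 to 404 and from 346 to 449, and dendritic cell markers from 135 to 147 and from 132 to 171. B cell markers ran from 110 to 133 and from 95.7 to 112, and NK cell markers from 110 to 140 and from 104 to 111. Those of plasma cells ran from 177 to 515 and from 181 to 365, and those of T cells from 151 to 186 and from 147 to 169. On HFD, Mzb1 was higher in NiPKO kidneys by 0.33, with sums from 2428 to 2859 in NiPKO and from 2260 to 2520 in control kidneys. In control mice Cd68, Coro1a and Ms4a1 were higher on HFD by 0.28, 0.27 and 0.27, with sums from 2260 to 2520 on HFD and from 2395 to 2467 on chow. The 4 neutrophil markers were dim, with means from 3.47 to 4.66, and none passed in any comparison by limma, also where Cxcl1 changed. The part of these cells in the chemokine differences was not tested.

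Adipocyte markers moved as well. All 4, Lep, Cidec, Plin1 and Adipoq, were higher on HFD in NiPKO mice, by 0.99, 0.66, 0.36 and 0.29, where 4.47% of all genes changed. Adipoq was dim, with means of 4.45 in HFD NiPKO, 4.16 in chow NiPKO and 4.40 in chow control kidneys. The summed linear signal of the 4 ran from 169 to 258 in HFD NiPKO kidneys and from 126 to 137 in chow NiPKO kidneys. Lep and Cidec were higher in HFD NiPKO than in HFD control kidneys, where the sum ran from 124 to 190. Lep was higher on HFD in control mice, with a sum from 124 to 190 on HFD and from 125 to 158 on chow. Adipoq and Cidec passed for the interaction, with values above 0, as 5.74% of all genes passed in either direction. No adipocyte marker passed for genotype on chow. Their part in the differences of Ccl2, Ccl3, Ccl9 and Cxcl10 was not tested.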

How the data were processed

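Whole-kidney RNA was measured on 16 Affymetrix Mouse Gene 2.0 ST arrays, 4 for each group. The authors deposited 41345 probe sets as log2 values that were already processed. Partek is the tool in the submitters' notes, with no version, and the background correction and normalization are not stated in the sources used here. Values ran between 2.07 and 13.8, the range of a log2 scale, with array medians of 5.35 to 5.4. Correlations between arrays lay between 0.9863 and 0.9917.

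Probe sets with 1 symbol in the platform annotation were kept, the brightest for each gene, which gave 22180 genes, dim ones included. One model with a mean per group was fitted (lmFit and eBayes, limma 3.58.1, R 4.3.3) and was checked on simulated data. Genes past the thresholds and the receptors of those ligands are given per array, the other members by counts. Promoters came from the RefSeq table of GRCm38.p6, which held 36 of the 50 members. Alternatives were fitting only the compared groups, quantile normalization, median centring, testing brighter genes only, the per-gene test of the methods, a trended robust prior, array weights, the mean of the probe sets of a gene, a fold change over 1.5, the replicate block and leaving out each array. The members, lists, markers and tests were chosen with earlier results of these data known.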

Additional observations from a re-analysis of the deposited data

Results flagged for a closer look

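Single arrays far from the rest of their group were sought in 88 groups of 4 values, the 14 ligands that changed and their 8 receptors in each group. By the gap to the nearest array over the range of the group, 2 stood apart, against the 1 in 20 groups that chance flags. Ccl4 read 5.44 in chow control replicate 1, against 5.75 to 5.77 in the other 3. Cxcl3 read 3.34 in chow control replicate 3, against 2.87 to 2.95 in the other 3.

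The interaction of genotype and diet passed a fold change over 1.2 and an unadjusted p under 0.05 for 6 of the 50 members, all ligands. This share of 12% stands against 5.74% of all genes. The interaction was 0.26 for Ccl12, 0.32 for Ccl9, -0.28 for Ccl4, -0.39 for Ccl20, -0.39 for Ccl26 and -0.61 for Cxcl1. Their adjusted p ran from 0.234 for Cxcl1 to 0.591 for Ccl9 (limma), none past the adjusted threshold.

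Probe sets shared by several genes of a family lay outside the comparisons. Among 13 such probe sets of the Ccl19 family, 2 were higher on HFD than on chow in control mice, by 0.28 and 0.30, with adjusted p of 0.428 and 0.392 over all probe sets (limma). All 13 had a difference above 0 in both genotypes for diet. Ccl19 is a ligand of Ccr7 that guides T cells and dendritic cells to lymph nodes. Among 11 of the Ccl27 family, 1 was higher on HFD in NiPKO mice, by 0.76 (adjusted p = 0.275). None of the 9 of the Ccl21 family passed in any comparison. These probe sets are near-copies of each other and are not separate measurements.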

How the results depend on the processing

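Of the 24 calls, 13 stood in every alternative run for them, leaving out arrays and the fold limit of 1.5 set aside, and 11 stood without any 1 array. The interaction was fitted neither from a pair of groups alone nor with the methods' t-test, and dim genes had no value in the fit of brighter genes. No called difference changed sign in any alternative. With a fold change over 1.5, the counts of changed members fell to 1 for genotype on chow, 0 for genotype on HFD, 1 for diet in control mice, 1 for diet in NiPKO mice and 1 for the interaction. When only the brighter genes (mean over the median of gene means) entered the fit, so that 14 members were tested, the counts were 2, 1, 3, 4 and 1 in the same order. The methods' t-test gave 1 for genotype on HFD and 2 for diet in control mice. It ended the calls of Cxcl3 for genotype on HFD, of Ccl20, Cxcl10 and Cxcl14 for diet in control mice, and of Ccl3 and Cxcl13 for diet in NiPKO mice. Leaving out 1 array gave 3 to 6 changed members for genotype on chow, 2 to 4 for genotype on HFD, 3 to 7 for diet in control mice, 5 to 9 for diet in NiPKO mice and 3 to 9 for the interaction. The lowest count of diet in control mice came without chow control replicate 1. The lowest of the interaction came without chow control replicate 1, chow NiPKO replicate 4, HFD control replicate 2 or HFD NiPKO replicate 2. The highest for genotype on HFD came without HFD NiPKO replicate 3. No label says that replicate numbers pair the samples. Deviations from the group means correlated between -0.107 and 0.166 for same-numbered arrays, and between -0.164 and 0.139 for the others. Such correlations cannot exclude a pairing. With the replicate number as a block the counts were 4, 3, 5, 7 and 8. Scaling moved the median of all genes by at most 0.027. The number of arrays limits the precision, signal over background is not known, and differences of dim members such as Cxcl3 and Ccl12 may be understated.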
